A study of Homo sapiens with 4 samples.

Results

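The p53 target genes described here were 36 genes, found as every non-control probe whose gene name on the array equals one of them, on all 4 arrays. They were 36 of 29123 named genes and had 51 of 41000 probes, and all 36 passed the filter on low signals and were tested among 27198 genes. A2780s is an established human epithelial ovarian cancer (EOC) cell line. RNA of 2 GALNT3 KO clones and of 2 GALNT3/T6 KO clones was hybridized on 4 arrays, 1 clone per array, each together with RNA of a mock-transfected A2780s control (Ctrl). GALNT3 and GALNT6 encode enzymes that start mucin-type O-glycosylation, and the design asks which genes change when 1 or both are suppressed. The GALNT3 KO clones were made by CRISPR/Cas9 with a repair plasmid, puromycin selection and Cre excision, and each is a single-cell line. The GALNT3/T6 KO clones carried in addition a lentiviral shRNA against GALNT6, so that by the labels GALNT3 was targeted in all 4 clones, while transduction and its selection went with the second group. By the labels Cy3 marked Ctrl and Cy5 marked KO RNA on every array, without a dye swap, so a dye effect cannot be told apart from a KO effect in the comparisons with Ctrl.

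The tumor suppressor p53 is a transcription factor that is stabilized after DNA damage and other stress and binds DNA as a tetramer, at sites built of a pair of similar half-sites. Its targets halt the cell cycle, start apoptosis, repair DNA, adjust metabolism and, through MDM2 and others, switch p53 itself off again. The p53 protein is regulated mainly by its stability, which these arrays do not measure.

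The measured quantity was the log2 ratio of KO over Ctrl for the brightest probe of each gene, after background correction and loess normalization, where 0 means equal signal and 1 means a 2-fold higher signal in KO. A gene was called higher or lower when its Benjamini-Hochberg adjusted p from limma over all genes tested was at most 0.05, and rose and fell are written of called genes alone. The spread is that between the 2 clones of a group. RNA came from whole cultures, so fewer cells with a transcript and less transcript per cell cannot be told apart. All 4 arrays lay on 1 slide, a channel had 86.9% to 93.8% of its spots well above background, and each member was well above background in both channels on all 4 arrays. The GALNT3 probe went against the label of the second group. It read 4.80 and 5.08 on the GALNT3/T6 KO-labelled arrays, a mean of 4.94 (standard error 0.10, adjusted p = 9.09e-05), while both channels of the GALNT3 KO arrays were not well above background there. Whether the probe lies in the disrupted part of GALNT3 is not given in the sources used here. GALNT6 stood at -0.42 in GALNT3 KO (adjusted p = 0.0445) and at -0.67 on the GALNT3/T6 KO-labelled arrays (adjusted p = 0.00334). The markers of ovarian and mullerian epithelium moved with the second group. In GALNT3 KO 0 of 8 were called higher, against 4.79% of all genes. On the GALNT3/T6 KO-labelled arrays 6 of 8 were, against 24.8%, with KRT18 at 5.68, KRT19 at 4.81, KRT8 at 2.83 and PAX8 at 1.21. VIM fell to -2.36 and FN1 rose to 3.69 on the same arrays. CDH2, also a mesenchymal marker, rose in both groups, to 2.54 in each (adjusted p = 0.0118 and 0.000874). The part of a change of cell state in the values below was not tested. Of 6 markers of other cell types (blood, endothelium and liver), 4 passed the filter and none was called in GALNT3 KO. On the GALNT3/T6 KO-labelled arrays 2 were called lower, against 23.1% of all genes, CD3E at -0.36 and ALB at -0.31.

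Promoter sequences show where p53 could meet some of these genes, and those that hold its half-site consensus are printed for that reason. Windows from 250 bases before to 50 bases after the transcription start were taken from RefSeq (GRCh38.p14), which gave 42 windows for 30 of the 36 members. The half-site consensus, 10 bases long and the same read on either strand, was found in 6 of those windows (14.3%), against 6.63% of all 35116 windows. It is in capitals below, with positions counted from the start, where -1 is the base before it.

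PLK2 (chr5:58460189-58460238, minus strand, half-site at -132 to -123): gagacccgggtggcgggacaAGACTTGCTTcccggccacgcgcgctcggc
SESN1 (chr6:109009008-109009057, minus strand, half-site at -49 to -40): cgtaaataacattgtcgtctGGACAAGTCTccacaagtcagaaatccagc
FAS (chr10:88991289-88991338, plus strand, half-site at -122 to -113): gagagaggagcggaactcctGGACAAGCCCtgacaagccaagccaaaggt
DDB2 (chr11:47214975-47215004, plus strand, both half-sites between 6 and 26 after the start): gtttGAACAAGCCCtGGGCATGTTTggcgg
AEN (chr15:88621286-88621335, plus strand, half-site at -34 to -25): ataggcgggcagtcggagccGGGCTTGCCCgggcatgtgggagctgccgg
FDXR (chr17:74872995-74873025, minus strand, half-site at -11 to -2): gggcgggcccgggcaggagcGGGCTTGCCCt

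DDB2 was the single member with a pair of half-sites at most 13 bases apart, a form found in 10 of the 35116 windows (0.0285%). The genes with a half-site did not move one way on the GALNT3/T6 KO-labelled arrays, where PLK2 and FAS rose and SESN1, DDB2, AEN and FDXR fell. A match is a description of the letters and not a bound site, and p53 sites farther from the start or inside introns, known for several members, lie outside these windows.

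The members moved apart on the GALNT3/T6 KO-labelled arrays, with large rises of a few genes and falls of more. In GALNT3 KO, 5 members were called higher than Ctrl, where 4.79% of all genes were, and 2 lower, where 6.44% were. Together these were 19.4% of the 36, against a background of 11.2%. The median over the members was 0.22, against 0.02 over all genes. No member stayed called when either GALNT3 KO array was left out, and the same held for all 27198 genes, while 6 members without replicate 1 and 9 without replicate 2 had an unadjusted p of at most 0.05 in limma. With median centring in place of loess 2 members were higher and 2 lower (8.57% of all genes called). With Agilent's own log ratio 1 was higher and none lower (2.17% of all genes called). On the GALNT3/T6 KO-labelled arrays, 11 members were called higher, against 24.8% of all genes, and 18 lower, against 23.1%. Together they were 80.6% against a background of 47.9%, and the median was -0.52 against 0.03. Of these calls, 8 of the 11 higher and 14 of the 18 lower were kept with each of the 4 arrays left out in turn. Between the KO groups, 9 members were higher and 13 lower on the GALNT3/T6 KO-labelled arrays, where 11.9% and 11.8% of all genes were. Together these made 61.1% of the members against a background of 23.7%. With Agilent's own log ratio 8 were higher and 18 lower (26% of all genes called). The median difference was -0.60, against -0.0035 over all genes. In the fit without GALNT3 KO replicate 1 the median difference was -0.56, against -0.0098 over all genes. In the fit without replicate 2 it was -0.59, against 0.0014, and fewer genes were called in both fits, members and all genes alike. The calls kept in all such fits were 4 higher (PLK2, PMAIP1, PERP, CD82) and 3 lower (SESN1, BTG2, SPATA18). The labels describe Ctrl alike on all 4 arrays, and whether its RNA came from 1 clone is not given in the sources used here. Values of both comparisons with Ctrl are given side by side.

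**Figure D1:**
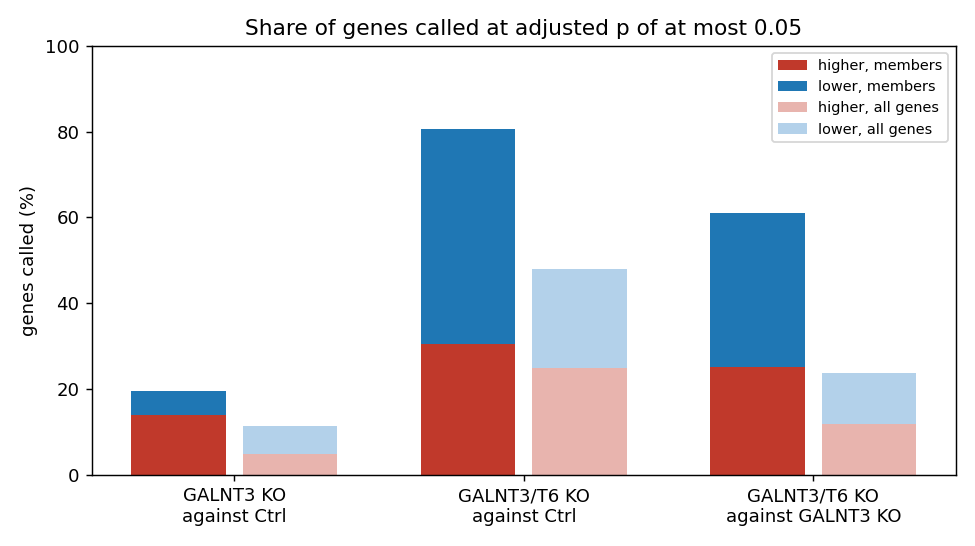
Share of genes called at an adjusted p of at most 0.05 (vertical axis, percent), for the 36 members and for all 27198 genes in each of the 3 comparisons, with higher and lower calls stacked. On the GALNT3/T6 KO-labelled arrays, 80.6% of the members were called against 47.9% of all genes.

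**Figure D2:**
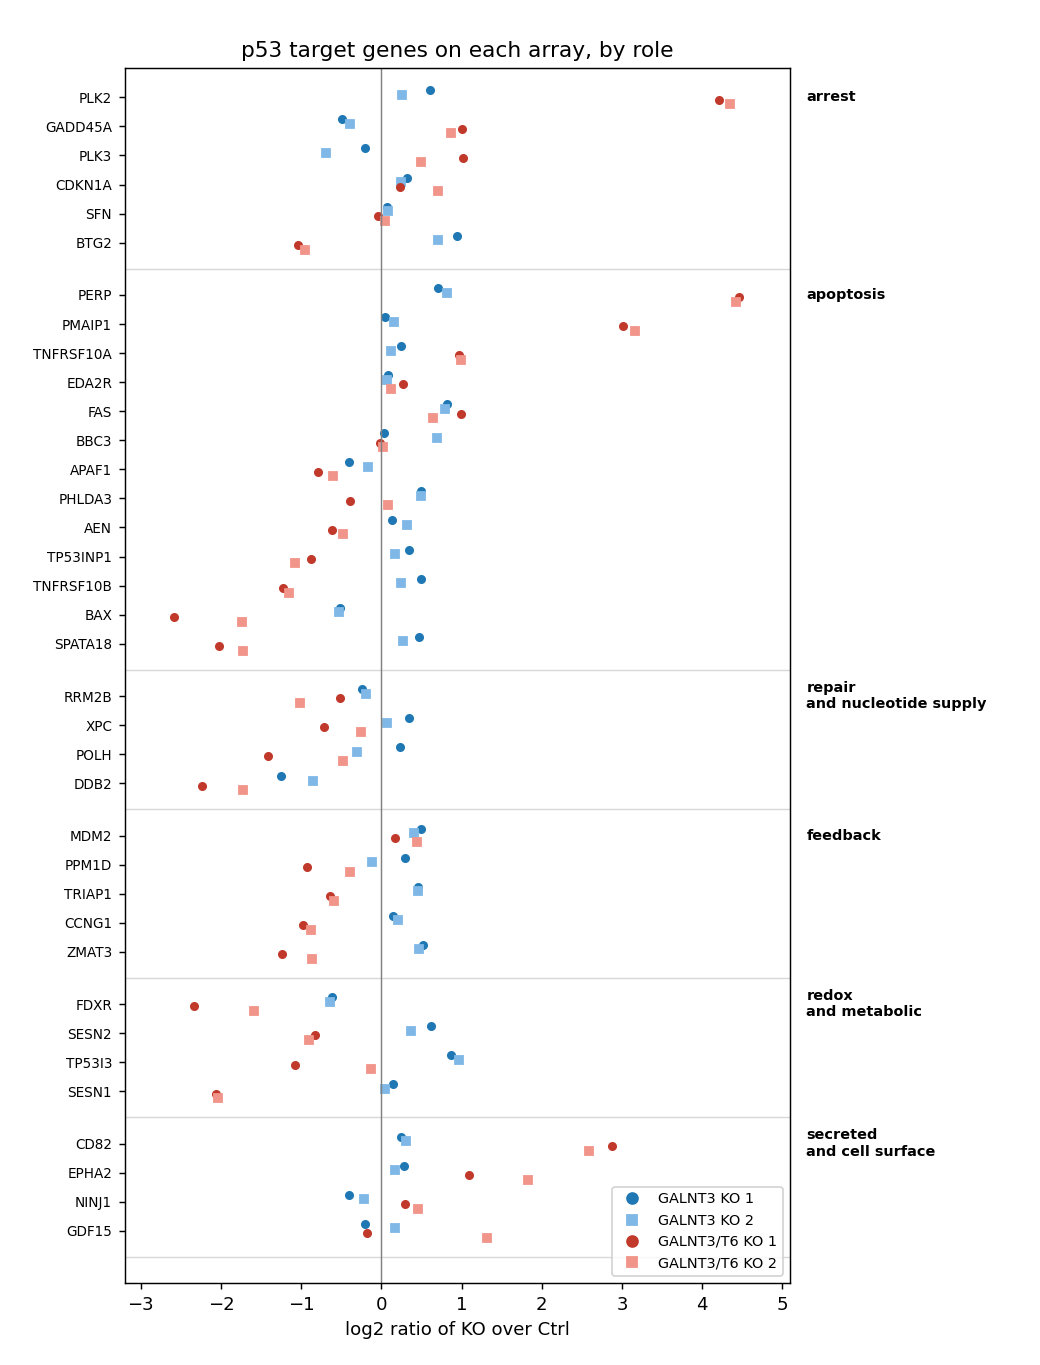
Log2 ratio of KO over Ctrl (horizontal axis) of each of the 36 members on each of the 4 arrays, grouped by role, with blue points for GALNT3 KO and red points for GALNT3/T6 KO clones. PERP, PLK2, PMAIP1 and CD82 stand far to the right on both GALNT3/T6 KO arrays, while BAX, DDB2, FDXR, SESN1 and SPATA18 stand farthest to the left.

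Among 23 upstream and partner genes of p53, 2 were called higher and 2 lower in GALNT3 KO, together 17.4% against 11.2% of all genes. In the other comparison, 3 were higher and 7 lower on the GALNT3/T6 KO-labelled arrays, together 43.5% and near the 47.9% of all genes. CDKN2A, whose locus encodes p16 and the MDM2 inhibitor ARF, rose to a mean of 2.41 in GALNT3 KO and 2.88 on the GALNT3/T6 KO-labelled arrays, and its 4 values lay between 2.39 and 2.92. MDM4, the MDM2 relative that masks the activation domain of p53, read -0.29 and -0.21 in GALNT3 KO and -1.27 and -1.69 on the other arrays, a difference between the groups of -1.23 (adjusted p = 0.0109). The checkpoint kinase CHEK1 fell in both groups, to -1.27 and -2.09, and CHEK2, not called in GALNT3 KO at -0.27, fell on the GALNT3/T6 KO-labelled arrays to -1.44, with a group difference of -1.17 (adjusted p = 0.0114). HIPK2, a kinase that phosphorylates p53, rose there to 1.71. TOPORS, a ligase for p53, fell in both groups, to -1.02 and -0.84. RPL5, a ribosomal protein that binds MDM2, rose in GALNT3 KO to 0.59. ATM, the kinase that relays DNA breaks to p53, was called in no comparison, with means of -0.03 and -0.15.

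Of the 6 arrest genes, 1 was called higher and 1 lower in GALNT3 KO (33.3% called, against 11.2% of all genes). On the GALNT3/T6 KO-labelled arrays 4 were higher and 1 lower (83.3% called, against 47.9% of all genes), and of the 4, PLK2 and GADD45A kept the call with each array left out in turn. CDKN1A, which encodes the cyclin-dependent kinase inhibitor p21, is read by its brightest probe at 36654706 to 36654765 on chromosome 6 of hg19. Its log2 ratios were 0.32 and 0.24 on the GALNT3 KO arrays and 0.23 and 0.70 on those labelled GALNT3/T6 KO. The groups overlapped. CDKN1A was not called in GALNT3 KO (0.28, standard error 0.13, adjusted p = 0.204) and passed the threshold narrowly on the other arrays (0.46, adjusted p = 0.0441). That call was lost without GALNT3/T6 KO replicate 2, where the value was 0.23, and without either GALNT3 KO array. It was also lost with median centring (0.21, adjusted p = 0.442) and at a minimum of 1.5-fold, while its second probe gave 0.57 and was called. On that second probe the groups did not overlap, with 0.08 and 0.01 in GALNT3 KO and 0.44 and 0.69 on the other arrays. The overlap thus depended on the probe, though the group difference was called in no setting. For the brightest probe the difference between the groups was 0.18, with a 95% interval from -0.32 to 0.68.

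PLK2, a polo-like kinase induced under stress, read 0.60 and 0.26 in the GALNT3 KO clones and 4.21 and 4.34 in the clones labelled GALNT3/T6 KO. The latter mean of 4.28 (standard error 0.12, adjusted p = 9.71e-05) is a 19.4-fold rise, and the groups stood far apart, by 3.85 (adjusted p = 0.000525). Its relative PLK3 read -0.21 and -0.69, then 1.01 and 0.49. PLK3 rose on the GALNT3/T6 KO-labelled arrays (0.75, adjusted p = 0.0261, a call lost without either GALNT3 KO array) and differed between the groups by 1.20 (adjusted p = 0.0317). GADD45A, a stress protein that binds PCNA and p21, changed in opposite directions: -0.49 and -0.39 in GALNT3 KO, but 1.00 and 0.87 on the other arrays. It fell in GALNT3 KO (-0.44, adjusted p = 0.0473) and rose on the GALNT3/T6 KO-labelled arrays (0.93, adjusted p = 0.00161), a difference of 1.37 (adjusted p = 0.00283). The fall in GALNT3 KO depended on the processing, at -0.09 with Agilent's own log ratio (adjusted p = 0.645), where the group difference was 1.27 and still called.

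BTG2, an antiproliferative partner of the CCR4-NOT deadenylase, went the opposite way to GADD45A. It read 0.94 and 0.71 in GALNT3 KO and -1.04 and -0.96 on the GALNT3/T6 KO-labelled arrays. The rise (0.82, adjusted p = 0.0235), the fall (-0.998, adjusted p = 0.00177) and the difference (-1.82, adjusted p = 0.00171) were all called. SFN, the 14-3-3 protein that holds CDK1 in the cytoplasm, had log2 signals of 7.61 to 8.38 in the KO channel. Its log2 ratios ran from -0.04 to 0.08 and it was called in no comparison.

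The apoptosis genes split. Of 13 members, 2 were called higher and 0 lower in GALNT3 KO (15.4% called, against 11.2% of all genes). On the GALNT3/T6 KO-labelled arrays 4 were higher, against 24.8% of all genes, and 6 lower, against 23.1% (together 76.9%, against 47.9%). PERP, a tetraspan membrane protein of desmosomes and a p53 effector of apoptosis, read 0.70 and 0.82 in GALNT3 KO and 4.46 and 4.42 on the GALNT3/T6 KO-labelled arrays. It was higher in both groups, by 0.76 (adjusted p = 0.0217) and by 4.44 (standard error 0.08, adjusted p = 9.09e-05), the latter a 21.7-fold rise, and the groups differed by 3.68 (adjusted p = 0.000414). The Ctrl channel of PERP was itself brighter on the GALNT3/T6 KO-labelled arrays, at log2 signals of 9.25 and 9.75 against 7.89 and 7.41. Brighter Ctrl channels there were not confined to PERP. That of KRT18 had 13.37 and 12.56 against 10.61 and 10.35. The same direction held for KRT19, KRT8, VIM, CD82, PMAIP1 and PLK2, but not for BAX. Group differences of such genes therefore set ratios to unlike Ctrl signals against each other. On the GALNT3/T6 KO-labelled arrays 6 of the 8 epithelial markers were called higher, against 24.8% of all genes, and a link to PERP was not tested. PMAIP1, which encodes the BH3-only protein NOXA, read 0.05 and 0.16, then 3.01 and 3.17. Its rise on the GALNT3/T6 KO-labelled arrays was 3.09 (adjusted p = 0.000103), with a group difference of 2.99 (adjusted p = 0.000516).

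BBC3, which encodes the BH3-only protein PUMA, gave an answer that depended on the probe. Its brightest probe, at 47731434 to 47731493 on chromosome 19 of hg19, read 0.04 and 0.69 in GALNT3 KO and -0.02 and 0.02 on the GALNT3/T6 KO-labelled arrays, and was called in no comparison. A second probe, at 47724174 to 47724233, read -0.18 and -0.27, then -1.84 and -2.11. With that probe BBC3 stood at -1.98 on the GALNT3/T6 KO-labelled arrays (adjusted p = 0.000285). The third probe stayed between -0.16 and 0.05. No direction is given for BBC3 because its probes disagree.

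BAX, the pore former of the mitochondrial outer membrane, had Ctrl log2 signals of 15.98 to 16.11 on the 4 arrays. Its brightest probe, at 49464904 to 49464963 on chromosome 19, read -0.52 and -0.53 in GALNT3 KO and -2.58 and -1.73 on the GALNT3/T6 KO-labelled arrays. BAX fell there by 2.16 on the log2 scale (standard error 0.21, adjusted p = 0.00185), which is 4.46-fold, and the groups differed by -1.64 (adjusted p = 0.0203). It was not called in GALNT3 KO (adjusted p = 0.154). Another BAX probe gave -2.72 and -1.82 on the GALNT3/T6 KO-labelled arrays, and the third gave -0.54 and -0.70. On those arrays the direction was shared and the size was not. In GALNT3 KO the same probes read -0.36 and -0.27, and 0.07 and 0.39, so the direction there depended on the probe. APAF1, the scaffold of the apoptosome, read -0.40 and -0.16, then -0.79 and -0.60, and was called lower on the latter arrays (-0.70, adjusted p = 0.00682).

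Death receptors divided in the same way. FAS, the receptor of FAS ligand, was steady across the groups, at 0.82 and 0.79 in GALNT3 KO and 1.00 and 0.64 on the GALNT3/T6 KO-labelled arrays. It rose in both, by 0.81 (adjusted p = 0.0305) and by 0.82 (adjusted p = 0.00516). The groups overlapped, with a difference of 0.01 and a 95% interval from -0.41 to 0.43. TNFRSF10A, a receptor of the ligand TRAIL, read 0.24 and 0.13, then 0.96 and 0.99, and rose on the GALNT3/T6 KO-labelled arrays (0.98, adjusted p = 0.00119). The other TRAIL receptor, TNFRSF10B, read 0.50 and 0.24 in GALNT3 KO but -1.22 and -1.15 on the other arrays, where it fell (-1.19, adjusted p = 0.00116). Its second probe was also lower there, at -0.83 and -0.92, but below 0 in GALNT3 KO as well, at -0.33 and -0.51. EDA2R, the ectodysplasin A2 receptor, ranged from 0.07 to 0.27 without a call.

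Among the stress effectors, TP53INP1, a protein that works with HIPK2 on p53, read 0.35 and 0.17 in GALNT3 KO and -0.88 and -1.07 on the GALNT3/T6 KO-labelled arrays. It fell there (-0.98, adjusted p = 0.00197) and differed between the groups by -1.24 (adjusted p = 0.00521). AEN, a nuclease of apoptotic cells, fell to -0.55 (adjusted p = 0.00971) with 0.14 and 0.32, then -0.62 and -0.48. PHLDA3, an inhibitor of AKT, read 0.50 and 0.49, then -0.39 and 0.08, without a call. SPATA18, which acts in mitochondrial quality control, read 0.47 and 0.28, then -2.02 and -1.73, and had the most negative difference between the groups among the members, at -2.25 (adjusted p = 0.00152). That value belongs to 1 of 3 probes. The others read -0.03 and -0.04, and -0.42 and -0.34, on the GALNT3/T6 KO-labelled arrays, and the call was lost with the second brightest, at -0.03 (adjusted p = 0.739).

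**Figure D3:**
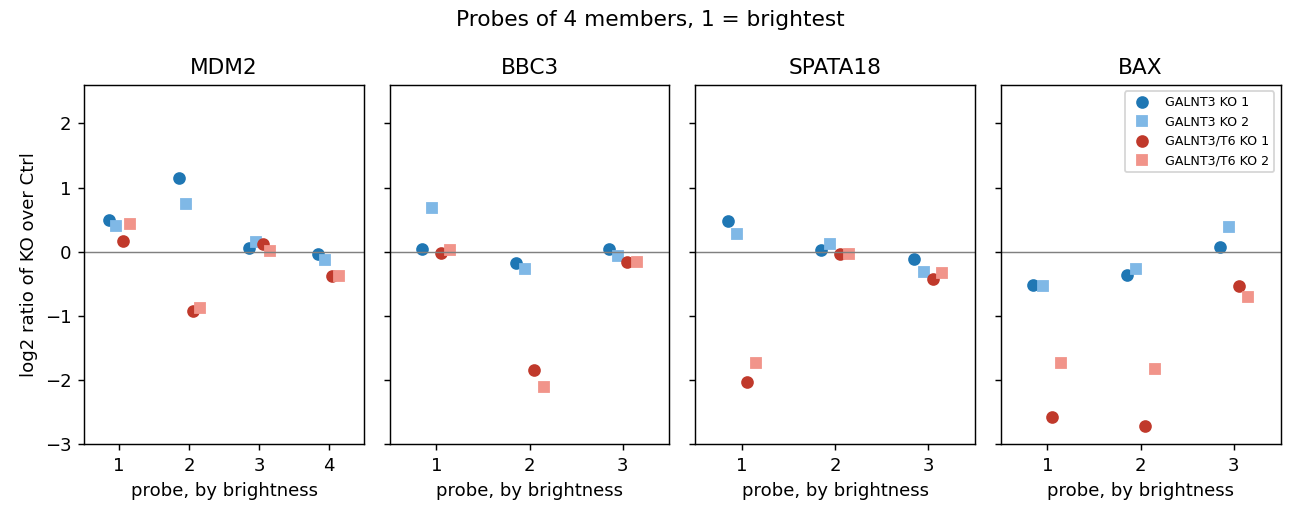
Log2 ratio of KO over Ctrl (vertical axis) for each probe of MDM2, BBC3, SPATA18 and BAX on the 4 arrays, with probes ordered from the brightest on the left. The second probe of MDM2 and of BBC3 and the first of SPATA18 lie apart from the other probes of the gene on the GALNT3/T6 KO arrays.

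All 4 genes of repair and nucleotide supply fell on the GALNT3/T6 KO-labelled arrays, where 23.1% of all genes did. In GALNT3 KO 1 of them fell, against 6.44% of all genes. DDB2, which finds ultraviolet damage for nucleotide excision repair and whose promoter holds the pair of half-sites printed above, is read at 47260623 to 47260682 on chromosome 11 of hg19. Its log2 ratios were -1.25 and -0.85 in GALNT3 KO and -2.24 and -1.73 on the GALNT3/T6 KO-labelled arrays. It was the one member lower than Ctrl in both groups, at -1.05 (adjusted p = 0.0358) and -1.99 (standard error 0.17, adjusted p = 0.00124). The GALNT3/T6 KO-labelled arrays were the lower ones, and the difference of -0.94 just missed the threshold (adjusted p = 0.0531).

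The other repair genes were less even between clones. XPC, the partner sensor of DNA damage, read 0.34 and 0.07, then -0.71 and -0.25, and its call on the GALNT3/T6 KO-labelled arrays was marginal (-0.48, adjusted p = 0.04996). POLH, the polymerase that copies past ultraviolet lesions, read 0.23 and -0.30, then -1.41 and -0.48, for a mean of -0.94 (adjusted p = 0.0381), a call lost with its second probe (-0.74). RRM2B, the p53-induced subunit of ribonucleotide reductase, read -0.25 and -0.19, then -0.52 and -1.01, for a mean of -0.77 (adjusted p = 0.0115). None of the 4 was called in the direct comparison of the groups, where 23.7% of all genes were. Both GALNT3/T6 KO-labelled arrays nevertheless lay below either GALNT3 KO array for each gene, against 31% of all genes. Each of these 3 calls was lost without either GALNT3 KO array, which enter through the shared spread. Without GALNT3/T6 KO replicate 1 those of XPC (-0.25) and POLH (-0.48) were lost as well.

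The 5 genes listed as feedback were MDM2, PPM1D and CCNG1, which act on p53 or MDM2, and TRIAP1 and ZMAT3, for which no such role is given here. In GALNT3 KO 1 of the 5 was called higher, TRIAP1, against 4.79% of all genes. On the GALNT3/T6 KO-labelled arrays 4 fell, against 23.1% of all genes, the exception being MDM2. MDM2, the ubiquitin ligase that marks p53 for degradation, has 4 probes. The brightest, at 69236129 to 69236188 on chromosome 12 of hg19, read 0.50 and 0.41 in GALNT3 KO and 0.17 and 0.44 on the GALNT3/T6 KO-labelled arrays. Those values overlapped, and neither mean was called (0.45, adjusted p = 0.0571; 0.31, adjusted p = 0.0621). The second probe, at 69238891 to 69238950, read 1.14 and 0.74, then -0.92 and -0.87, which was a rise in GALNT3 KO (0.94, adjusted p = 0.0247) and a fall on the other arrays (-0.90, adjusted p = 0.00425). Both remaining probes stayed between -0.37 and 0.15. For MDM2, too, the direction depended on the probe.

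PPM1D, the phosphatase WIP1 that removes activating phosphates from p53, read 0.29 and -0.11, then -0.93 and -0.39, and was called lower (-0.66, adjusted p = 0.0339), a call lost without either GALNT3 KO array or GALNT3/T6 KO replicate 1 (-0.39). CCNG1, a cyclin that directs a phosphatase to MDM2, read 0.15 and 0.20, then -0.98 and -0.88. It fell by 0.93 on the GALNT3/T6 KO-labelled arrays (adjusted p = 0.00135) and differed between the groups by -1.11 (adjusted p = 0.00433). ZMAT3, an RNA-binding zinc finger protein, read 0.52 and 0.47, then -1.23 and -0.87, a fall to -1.05 (adjusted p = 0.00253) and a difference of -1.55 (adjusted p = 0.00436). Its second probe read -0.57 and -0.21 on the GALNT3/T6 KO-labelled arrays, a smaller fall to -0.39, with a difference of -0.94, both still called. TRIAP1, a small inhibitor of caspase activation, read 0.46 and 0.46, then -0.65 and -0.59. It rose in GALNT3 KO (0.46, adjusted p = 0.0393), fell on the other arrays (-0.62, adjusted p = 0.0041) and differed by -1.07 (adjusted p = 0.00425).

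The redox and metabolic genes were lower on the GALNT3/T6 KO-labelled arrays than in GALNT3 KO in 4 of 4 cases, all called. Over all genes 11.8% were called lower in that comparison. SESN1, a sestrin that restrains mTORC1, read 0.15 and 0.04 in GALNT3 KO and -2.06 and -2.04 on the GALNT3/T6 KO-labelled arrays, a fall to -2.05 (standard error 0.08, adjusted p = 0.000178). A second probe of SESN1 read 0.53 and 0.36, then -1.37 and -1.30. Its relative SESN2 read 0.62 and 0.36, then -0.83 and -0.90. SESN2 rose in GALNT3 KO (0.49, adjusted p = 0.0489), fell on the other arrays (-0.87, adjusted p = 0.00292) and differed by -1.35 (adjusted p = 0.00418). FDXR, the ferredoxin reductase of mitochondria, read -0.62 and -0.64, then -2.34 and -1.59, for a fall to -1.97 (adjusted p = 0.0018). TP53I3, a quinone oxidoreductase, read 0.87 and 0.97, then -1.07 and -0.13. It was called in neither comparison with Ctrl but differed between the groups by -1.52 (adjusted p = 0.0332).

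**Figure D4:**
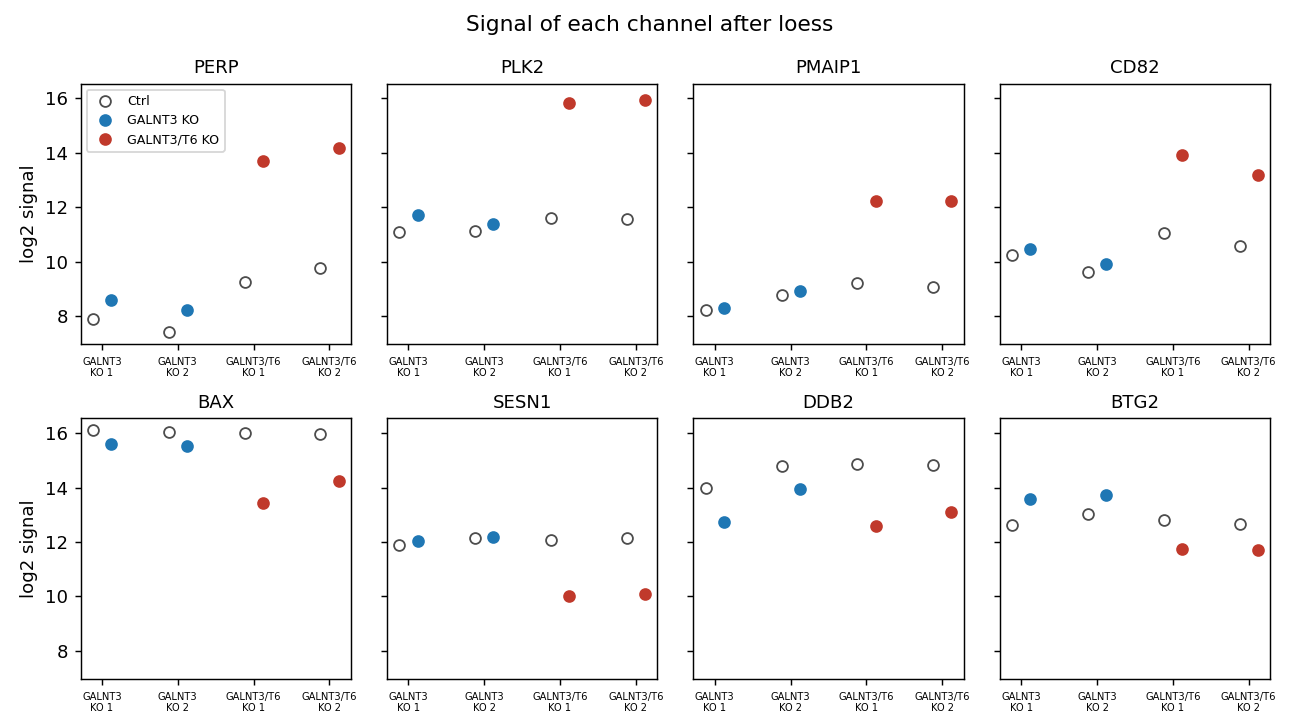
Log2 signal after loess and quantile normalization between arrays (vertical axis), for 4 members that rose and 4 that fell on the GALNT3/T6 KO arrays. Open points give the Ctrl channel and filled points the KO channel on each of the 4 arrays. The Ctrl signal of PERP was 7.89 and 7.41 on the GALNT3 KO arrays and 9.25 and 9.75 on the others, while that of BAX stayed between 15.98 and 16.11.

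None of the 4 secreted and cell surface members was called in GALNT3 KO, where 11.2% of all genes were. On the GALNT3/T6 KO-labelled arrays 3 were higher, against 24.8% of all genes. CD82, a tetraspanin known as a metastasis suppressor, read 0.24 and 0.31, then 2.87 and 2.59, a rise of 2.73 (adjusted p = 0.000157) and a group difference of 2.46 (adjusted p = 0.000998). Its Ctrl log2 signal was 10.24 and 9.61 on the GALNT3 KO arrays and 11.06 and 10.58 on the others. EPHA2, an ephrin receptor of epithelial cells, read 0.29 and 0.17, then 1.098 and 1.82, a rise of 1.46 (adjusted p = 0.00408). NINJ1, a membrane protein of cell rupture and adhesion, read -0.40 and -0.21, then 0.29 and 0.45, with a rise of 0.37 (adjusted p = 0.0328) that was lost without either GALNT3 KO array or GALNT3/T6 KO replicate 2 (0.29). GDF15, a secreted stress cytokine, parted the clones of 1 group: -0.20 and 0.17 in GALNT3 KO, but -0.18 and 1.32 on the GALNT3/T6 KO-labelled arrays. It was called in no comparison, and the 95% interval of its group difference ran from -0.76 to 1.94.

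Opposite calls in the comparisons with Ctrl were made for 4 members. SESN2, BTG2 and TRIAP1 rose in GALNT3 KO and fell on the GALNT3/T6 KO-labelled arrays, and GADD45A was the reverse. Over all genes 1.87% had opposite calls. FAS and PERP were called higher in both comparisons and DDB2 lower, where 6.87% of all genes were called the same way in both. By position alone, both GALNT3/T6 KO-labelled arrays were lower than either GALNT3 KO array for 22 of the 36 members, against a background of 31% of all genes, and above them for 10, against 30%. The groups overlapped for MDM2, CDKN1A, FAS and GDF15. These positions are those of the brightest probe, and on the second probes of MDM2 and CDKN1A the groups did not overlap.

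**Figure D5:**
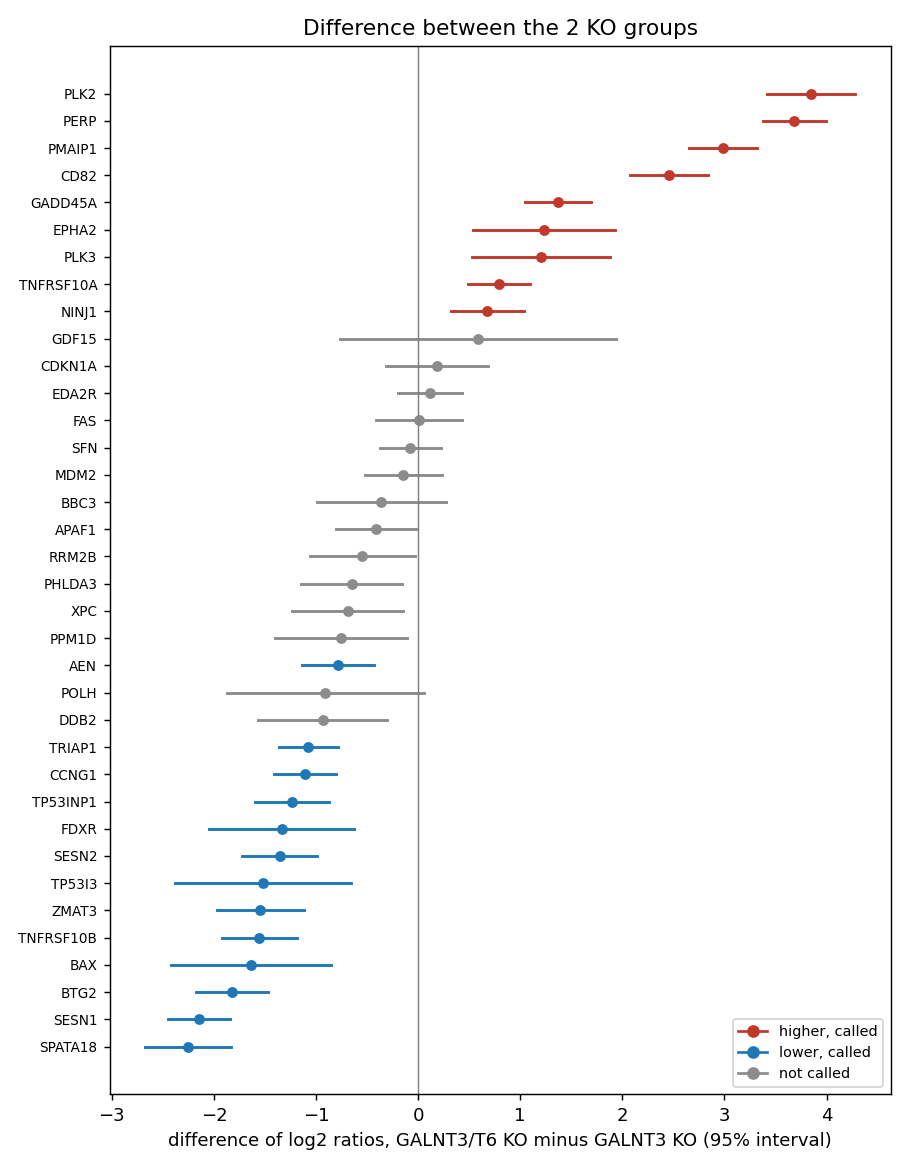
Difference of the mean log2 ratios, GALNT3/T6 KO minus GALNT3 KO (horizontal axis), for each of the 36 members with its 95% interval from limma, which is not adjusted for multiple testing. Called genes are colored, 9 higher and 13 lower, and grey intervals that miss 0 belong to genes whose adjusted p was above 0.05.

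Clones of a group differed more among the GALNT3/T6 KO-labelled arrays. The median gap between the 2 clones over the members was 0.23 there, against 0.17 over all genes, and 0.11 in GALNT3 KO, against 0.14. Clone 1 of the GALNT3/T6 KO group lay below clone 2 for 27 of the 36 members (75% against 51% of all genes). The widest gaps were those of GDF15 (-1.49, clone 1 minus clone 2), TP53I3 (-0.94), POLH (-0.93), BAX (-0.85) and FDXR (-0.75). The median over the members was -0.57 on the array of clone 1 and -0.19 on that of clone 2.

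Of 39 further p53 targets tested beyond the members, 3 were called higher and 2 lower in GALNT3 KO, together 12.8% and near the 11.2% of all genes. On the GALNT3/T6 KO-labelled arrays 17 were higher and 9 lower, together 66.7% against 47.9%. Their median there was 0.15, against -0.52 for the members. Genes that rose there included AIFM2, the ferroptosis suppressor FSP1 (2.94, adjusted p = 0.000258), RPS27L, a ribosomal protein (2.44, adjusted p = 0.00116) and ATF3, a stress transcription factor (2.40, adjusted p = 0.000372). PLTP, a phospholipid transfer protein, rose in GALNT3 KO (0.95, adjusted p = 0.0195) and fell on the other arrays (-2.21, adjusted p = 0.000224), a difference of -3.16. BTG1, the relative of BTG2, differed between the groups by 3.08 (adjusted p = 0.00403), where BTG2 differed by -1.82. In GALNT3 KO, E2F7, a repressor of cell cycle genes, fell to -1.43 (adjusted p = 0.0431) and IKBIP to -0.85 (adjusted p = 0.0213). LIF, a cytokine, rose there to 0.82 (adjusted p = 0.0259). Each was called in the same direction on the GALNT3/T6 KO-labelled arrays, at -1.61, -0.53 and 1.23.

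Cell cycle genes that p53 is known to lower through p21 and the DREAM complex were also read. In GALNT3 KO, 15 of 15 lay below 0 with a median of -0.54, and 5 were called lower, which is 33.3% against 6.44% of all genes. On the GALNT3/T6 KO-labelled arrays 10 of 15 lay below 0, the median was -0.17 and 3 were called lower, which is 20% against 23.1% of all genes. BUB1, a kinase of the spindle checkpoint, fell to -1.21 in GALNT3 KO (adjusted p = 0.0235) and CCNB2 to -1.13 (adjusted p = 0.0125). The survivin gene BIRC5 fell there to -0.97 (adjusted p = 0.0221) and AURKB to -0.77 (adjusted p = 0.0233). BIRC5 and AURKB also fell on the GALNT3/T6 KO-labelled arrays, to -0.92 (adjusted p = 0.00313) and -0.48 (adjusted p = 0.0122), while BUB1 and CCNB2 were not called there. In the direct comparison 4 of the 15 were higher on the GALNT3/T6 KO-labelled arrays, against 11.9% of all genes. These were BUB1 (1.15), AURKA (0.90), CCNB2 (0.86) and CDK1 (0.63). CDKN1A itself stood at 0.28 in GALNT3 KO, not called, and at 0.46 on the GALNT3/T6 KO-labelled arrays, a narrow call (adjusted p = 0.0441). Its group difference was not called. A link between CDKN1A and these genes was not tested.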

How the data were processed

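Each array held RNA of 1 KO clone (Cy5) and Ctrl RNA (Cy3), by the labels. The authors deposited spot intensities, with local background, from Agilent Feature Extraction, version 8.5.1.1 by the labels and 10.7.3.1 by the file headers, together with Agilent's log10 ratio. The deposited series table held the same log10 ratios, rounded. Probe coordinates are hg19, per the file headers. The published methods speak of a reverse-color label of Ctrl, which leaves open whether dyes were swapped, and the labels were followed.

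Background correction used normexp with an offset of 50, and loess normalized each array with control and outlier spots at weight 0. Log2 signals of single channels were further quantile normalized between arrays, on the mean of both channels, which left the ratios unchanged. Spots of a probe were averaged. A probe was kept if both arrays of either group had it well above background in 1 channel or both, and the brightest kept probe stood for its gene. limma 3.58.1 (R 4.3.3) fitted all 4 arrays with a mean per group, without a replicate block. Ctrl was never hybridized against Ctrl, so the tests against 0 do not hold the spread of Ctrl. The number of arrays limits the precision, and intervals are limma's at 95%. The fit was tested on simulated data. Figures were drawn with matplotlib 3.10.9.

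The members and the gene lists were chosen with earlier results of these data known, so no p is given for a list. Every member is named. From the other lists the 4 called genes with the largest absolute log2 value in each comparison are named, with MDM4, CDKN2A, ATM and the targeted genes; the cell markers were added to that rule after their values were seen, and some genes it selects are not reported here. Alternatives changed the background, normalization, values, probe, filter, spread, call rule, test or arrays.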

Additional observations from a re-analysis of the deposited data

Results flagged for a closer look

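The following 4 members were singled out because they were called against Ctrl in both KO groups, in opposite directions, with a called difference in limma. Further members, such as SPATA18 and ZMAT3, had means of opposite sign and a called difference but were not called in both groups. For SESN2 the log2 difference, GALNT3/T6 KO minus GALNT3 KO, was -1.35 (adjusted p = 0.00418), for BTG2 it was -1.82 (adjusted p = 0.00171) and for TRIAP1 it was -1.07 (adjusted p = 0.00425). For GADD45A it was 1.37 (adjusted p = 0.00283). In each case both arrays of a group stood on one side of 0 and both of the other group on the opposite side. The calls of all 4 against Ctrl in GALNT3 KO were lost when either of its arrays was left out and with Agilent's log ratio, with which GADD45A stood at -0.09 (adjusted p = 0.645).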

How the results depend on the processing

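With 2 arrays a group and no dye swap, the counts for GALNT3 KO changed with several choices. There the members called higher and lower were 5 and 2, beside 11.2% of all genes called. They became 2 higher with median centring (8.57% of all genes called). Agilent's log ratio (2.17%) or the deposited table (2.15%) gave 1 higher and 0 lower. With the second brightest probe, added after seeing the data, 8 were higher (11.8%). A normexp offset of 16 gave 1 lower (12%). When the group's own arrays alone gave the spread, they were 13 and 6 (34.7%). The member median of 0.22 became 0.12, 0.14, 0.17 and 0.14 with median centring, Agilent's ratio or the deposited table, the probes' mean and the second brightest probe. With the methods' t-test at p of at most 0.05, 8 members were higher in GALNT3 KO, and 6 higher and 7 lower on the GALNT3/T6 KO-labelled arrays. After adjustment that test called 0 members in every comparison. Its p before adjustment was at most 0.05 for 10, 13 and 17 members, against 14.7%, 20.9% and 24.9% of all genes. The causes were not tested.

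Leaving out 1 array at a time gave member medians from 0.17 to 0.24 in GALNT3 KO. The counts of members called changed with the array left out, as did those over all genes. It gave 8 to 13 higher and 14 to 20 lower on the GALNT3/T6 KO-labelled arrays, with medians from -0.57 to -0.19, and 4 to 10 higher and 3 to 18 lower between the groups. A lone array was then assumed to vary like the other group.

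The replicate numbers did not pair the samples: deviations of same-numbered arrays correlated at -0.24. With the replicate block, 0 members were called in GALNT3 KO (16 at an unadjusted p of at most 0.05), 9 higher and 15 lower on the GALNT3/T6 KO-labelled arrays, and 7 higher and 14 lower between the groups. Over all genes that block called 0.301%, 37.1% and 17.5%. With the numbers crossed, a choice made after seeing the data, the counts of members called were 6, 29 and 25. Over all genes 13.5%, 49.8% and 26.9% were then called.

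The reversed values all came from the choice of probe. On the GALNT3/T6 KO-labelled arrays, BBC3 was -0.71 with the mean of all probes and -1.98 with the second brightest, and MDM2 was -0.90 with the second brightest. TNFRSF10B in GALNT3 KO was -0.42 with it (adjusted p = 0.0489). Of 2016 values of members compared, 36 changed sign without being called under either setting.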
